A study of Mus musculus with 8 samples.

Results

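Molecular chaperones were followed in single mouse bone marrow cells as a group of 10 genes of 19879 gene names in the 8 libraries, all 10 of which were present and tested. The members were taken by name and placed by compartment: Hsp90aa1, Hsp90ab1 and Hspa8 in the cytosol, Hspd1, Hspe1 and Hspa9 in the mitochondrion, and Hsp90b1, Hspa5, Calr and Pdia3 in the endoplasmic reticulum (ER). The bone marrow donors were wild type or heterozygous for Mof (Kat8), a histone acetyltransferase gene, written Mof -/+; their age is not given. Each genotype had 2 libraries labelled HSC and 2 labelled plate2, read by CEL-Seq2, which tags the RNA of each sorted cell with a well barcode and a molecular identifier. The series' design text lists HSC, gated as CD48-negative and CD150-positive stem cells, next to sorted progenitor gates of the megakaryocyte, erythroid and granulocyte-macrophage lineages. The labels do not say which of the progenitor gates a plate2 well held, nor whether libraries of a group came from separate mice, so p-values measure the spread between libraries, which may be technical.

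Chaperones bind unfolded proteins and help them reach or keep their folded form. In the cytosol the Hsp70 protein encoded by Hspa8 passes clients on to the Hsp90 proteins. In mitochondria the Hspd1 protein forms a folding chamber that the Hspe1 protein closes as a lid. In the ER, BiP (Hspa5) and Grp94 (Hsp90b1) fold secreted and membrane proteins, while calreticulin (Calr) and Pdia3 act on glycoproteins. Blood stem cells are known for low protein synthesis and for poor tolerance of misfolded proteins.

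The start regions of the members are shown first because ER and mitochondrial members carry different known control elements there. RefSeq promoter windows (GRCm38.p6, 250 bases before to 50 after a start site) were held for 6 of the 10 members, with 2 windows for Hspd1 and 1 each for Hspe1, Hspa5, Pdia3, Calr and Hsp90b1. The ER stress element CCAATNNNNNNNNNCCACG, searched on both strands, occurred in 39 of 32851 windows (0.119%) and in those of Hspa5, Calr and Hsp90b1, the last with 2 matches. Its first 5 letters are also the CCAAT box, which 37.4% of windows held. The window of Pdia3 had no match to the full element. Stretches before the start site are given 5′ to 3′ on the gene's strand, with the matched element in capitals, and those inside a GENCODE exon are cut to 30 bases.
Hspa5, chr2:34772020-34772049, plus strand: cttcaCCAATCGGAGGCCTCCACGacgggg
Calr, chr8:84846935-84847181, minus strand: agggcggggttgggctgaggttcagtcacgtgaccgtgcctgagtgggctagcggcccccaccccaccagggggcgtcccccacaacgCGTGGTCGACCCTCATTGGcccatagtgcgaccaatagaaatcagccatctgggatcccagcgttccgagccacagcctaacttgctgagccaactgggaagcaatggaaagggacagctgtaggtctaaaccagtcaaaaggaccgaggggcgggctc
Hsp90b1, chr10:86705510-86705694, minus strand: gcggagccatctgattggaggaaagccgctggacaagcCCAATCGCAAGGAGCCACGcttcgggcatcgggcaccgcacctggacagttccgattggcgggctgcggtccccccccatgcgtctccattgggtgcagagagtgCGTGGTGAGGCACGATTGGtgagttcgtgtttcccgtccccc
The Calr match and the second Hsp90b1 match lie on the opposite strand, so that they read CGTGG first.

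By the GENCODE annotation of GRCm38, these genes are at chr10:86690209-86705509 (Hsp90b1), chr8:84841850-84846934 (Calr), chr2:34771970-34777547 (Hspa5) and chr2:121413775-121438687 (Pdia3). The cytosolic members are at chr12:110690605-110702728 (Hsp90aa1), chr17:45567775-45573271 (Hsp90ab1) and chr9:40800984-40810087 (Hspa8). All are protein-coding genes.

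Hspd1 and Hspe1 lie head to head on chromosome 1, Hspd1 on the minus strand (55077835 to 55088243) and Hspe1 on the plus strand (55088132 to 55091307), so that their first exons share a start region. The heat shock triple GAANNTTCNNGAA, searched on both strands and overlapping the pairs GAANNTTC and TTCNNGAA, occurred in 198 of 32851 windows (0.603%). The Hspe1 window and 1 of the 2 Hspd1 windows held it, at the same place, and the 2 lines give 1 stretch of DNA read from either strand.
Hspe1, chr1:55088053-55088082, plus strand: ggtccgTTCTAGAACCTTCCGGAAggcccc
Hspd1, chr1:55088053-55088082, minus strand: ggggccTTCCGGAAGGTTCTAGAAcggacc
A match to letters is a description of the window and not a measurement of binding.

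A well was kept as a cell when it held at least 1000 transcripts, which left 436 of 1536 barcodes, between 45 and 68 a library. HSC libraries held 99312 to 244299 transcripts with medians of 1567 to 2979 a well, and plate2 libraries held 424794 to 734550 with medians of 8082 to 12530. The added spike-in RNA had a median of 130 to 304 transcripts a well in HSC libraries and 10.5 to 18 in plate2 libraries. Depth and spike-in share therefore separate the sets as the gates do, and these cannot be told apart in any comparison of the sets. Stem cell markers summed to 3284 to 4296 CPM (counts scaled to a library total of 1000000) in HSC and 514 to 1034 CPM in plate2 libraries, and erythroid progenitor markers to 985 to 2678 against 3513 to 4446 CPM. Wild type HSC library 1 stood apart, with 16055 CPM of late erythroid and 5389 CPM of mature neutrophil markers. The B and plasma cell list, whose mature members are rich in ER chaperones, was at 9.70 to 54.7 CPM in HSC and 53.1 to 80.1 CPM in plate2 libraries, with Igkc, Mzb1, Ebf1 and Ms4a1 at 0 in every HSC library. Of the 436 kept wells, 67 sat on a barcode that held at least 10 times as many transcripts in another library. They gave 3.59% to 21.2% of the transcripts of an HSC library and 0.439% to 2.45% of a plate2 library. They include all 19 kept wells outside the barcodes that hold most wells of their library, and whether they are cells or transcripts of the deeper well was not tested. Results that rest on them are given with and without them. Kat8 itself had 1 to 2 transcripts in each HSC library and 4 to 12 in each plate2 library, too few to check the genotype labels.

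Levels of the members are given in CPM over all kept wells of a library. Each transcript is counted once near its end whatever its length, so levels may be set side by side between genes. Because wells are summed, fewer cells of a type and less RNA per cell cannot be told apart. The 10 genes together reached 4794 to 6745 CPM in HSC libraries and 7431 to 10841 CPM in plate2 libraries, so the sets did not overlap. The cytosolic members gave most of this sum, with 2969 to 4348 CPM in HSC and 4997 to 7163 CPM in plate2 libraries. The ER members gave 689 to 1171 CPM and 1429 to 2158 CPM, and the mitochondrial members, whose sets overlapped, 721 to 1708 CPM and 1005 to 1520 CPM.

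**Figure D1:**
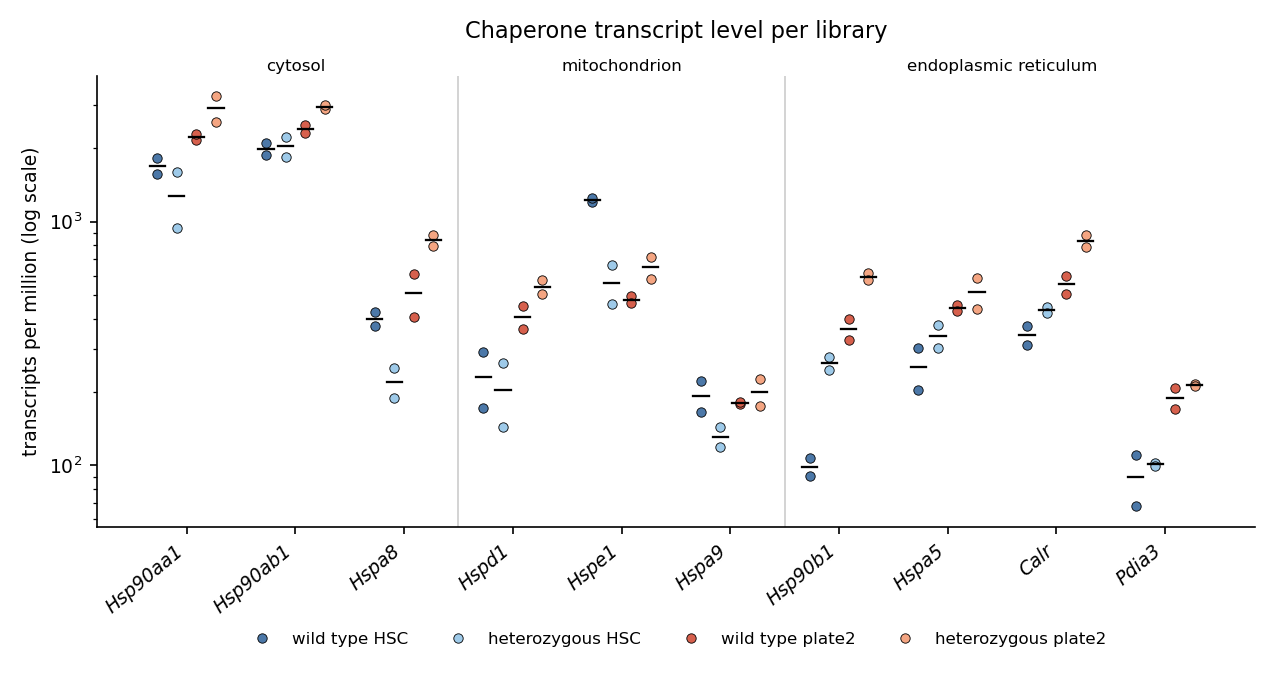
CPM of each chaperone on a log axis, 1 point per library, with a bar at the mean of the 2 libraries of a group. All 4 plate2 libraries lie above all 4 HSC libraries for Hsp90aa1, Hsp90ab1, Hspd1, Hsp90b1, Hspa5, Calr and Pdia3, while Hspa8, Hspe1 and Hspa9 overlap, and Hspe1 is highest in the wild type HSC libraries. The share of all genes whose sets lie apart in this way was not counted, so the separation is a description of the members alone.

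Chaperone messages were higher in plate2 than in HSC libraries, with 8 of 10 members called higher and 0 called lower in the mean over genotypes (edgeR adjusted p under 0.05). Of all 6690 genes tested, 19.5% were called higher and 16.4% lower. The members' median log2 fold change was 1.04, against 0.08 over all genes tested. The members were chosen with earlier results of these data known. The genes tested were not matched to them in count, so the shares are set side by side as a description. All 4 ER members and all 3 cytosolic members rose, and of the mitochondrial members only Hspd1 did so. This contrast compares the levels of all 8 libraries, and those within wild type or within heterozygotes compare the levels of 4. Each contrast comes from 1 fit to all 8 libraries, whose groups share the spread of a gene.

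Hsp90b1, which encodes the ER Hsp90 protein, had the largest difference among the members over both genotypes and in wild type. Its level was 90.7 and 106.8 CPM in wild type HSC, 246 and 278 CPM in heterozygous HSC, 400.3 and 327 CPM in wild type plate2, and 614 and 573 CPM in heterozygous plate2 libraries. The wild type HSC libraries were low against every other library, and they rest on only 9 and 11 transcripts. The log2 fold change of plate2 over HSC was 1.76 ± 0.23 (SE, 4 libraries a set; edgeR adjusted p = 6.11e-06), a 3.38-fold difference. It was 2.14 ± 0.35 in wild type and 1.38 ± 0.28 in heterozygotes (edgeR adjusted p = 0.000324 and 0.00159).

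Pdia3, a thiol oxidoreductase that works with calreticulin, was at 110.8 and 67.9 CPM in wild type HSC, 102.4 and 99.5 CPM in heterozygous HSC, 208 and 169.5 CPM in wild type plate2, and 216 and 211 CPM in heterozygous plate2 libraries. The sets did not overlap, and the genotypes were close within each set. The HSC levels rest on only 11 and 7 transcripts in wild type and 25 and 20 in heterozygotes, so closeness there is uncertain. Pdia3 rose by 1.31 ± 0.24 (log2, SE; edgeR adjusted p = 0.000326), with 1.35 ± 0.38 in wild type and 1.27 ± 0.31 in heterozygotes.

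Calr, the calcium-binding lectin chaperone, was at 373 and 311 CPM in wild type HSC, 446 and 423 CPM in heterozygous HSC, 600.5 and 504 CPM in wild type plate2, and 880.3 and 789 CPM in heterozygous plate2 libraries. Each group lay above the one before it in that order, without overlap. The log2 fold change over HSC was 1.05 ± 0.20 (edgeR adjusted p = 0.000383), with 0.96 ± 0.29 in wild type and 1.13 ± 0.27 in heterozygotes. With every well thinned to 1000 transcripts it was 0.54 and no longer passed (edgeR adjusted p = 0.0956).

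Hspa5, the ER Hsp70 protein BiP and a classical target of the unfolded protein response, was at 302 and 204 CPM in wild type HSC, 377 and 303 CPM in heterozygous HSC, 453 and 429 CPM in wild type plate2, and 439 and 585 CPM in heterozygous plate2 libraries. The sets did not overlap, but heterozygous HSC library 1 came close to wild type plate2 library 2. It rose by 0.93 ± 0.21 (log2, SE; edgeR adjusted p = 0.00208), with 1.07 ± 0.32 in wild type, where it passed (edgeR adjusted p = 0.0242), and 0.78 ± 0.28 in heterozygotes, where it did not (edgeR adjusted p = 0.0520).

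Hspa8, the constitutive cytosolic Hsp70, was at 373 and 427 CPM in wild type HSC, 249.8 and 188.96 CPM in heterozygous HSC, 609 and 407 CPM in wild type plate2, and 796 and 880.1 CPM in heterozygous plate2 libraries. The sets overlapped, since 1 wild type plate2 library lay below the higher wild type HSC library. The mean over genotypes rose by 1.37 ± 0.21 (log2, SE; edgeR adjusted p = 6.03e-05). In heterozygotes it rose by 2.12 ± 0.30 (edgeR adjusted p = 7.92e-05), and in wild type the value was 0.61 ± 0.30 (edgeR adjusted p = 0.170).

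Hsp90aa1, the stress-inducible cytosolic Hsp90, was at 1561 and 1815 CPM in wild type HSC, 1597 and 945 CPM in heterozygous HSC, 2168 and 2277 CPM in wild type plate2, and 2562 and 3267 CPM in heterozygous plate2 libraries. The sets did not overlap, and heterozygous HSC library 2 was the low library among HSC. The difference of 1.02 ± 0.19 (log2, SE) passed over both genotypes (edgeR adjusted p = 0.000348) and in heterozygotes (1.39 ± 0.27, edgeR adjusted p = 0.00117), and it was 0.66 ± 0.27 in wild type (edgeR adjusted p = 0.0975).

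Hsp90ab1, the constitutive cytosolic Hsp90, was at 1874 and 2106 CPM in wild type HSC, 2231 and 1835 CPM in heterozygous HSC, 2501 and 2312 CPM in wild type plate2, and 2898 and 3016 CPM in heterozygous plate2 libraries. The sets were separate by a small margin, and it rose by 0.64 ± 0.17 (log2, SE; edgeR adjusted p = 0.00588). Scaled by library size alone its value was 0.41, which did not pass (edgeR adjusted p = 0.0588). Within the genotypes the difference was 0.53 ± 0.24 in wild type (edgeR adjusted p = 0.125) and 0.74 ± 0.24 in heterozygotes, the latter past the threshold (edgeR adjusted p = 0.0295).

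Hspd1, the mitochondrial Hsp60, was at 171.2 and 291 CPM in wild type HSC, 262 and 144.2 CPM in heterozygous HSC, 449 and 363 CPM in wild type plate2, and 504 and 576 CPM in heterozygous plate2 libraries. Every plate2 library was above every HSC library. It rose by 1.33 ± 0.24 (log2, SE; edgeR adjusted p = 0.000219), by 1.07 ± 0.35 in wild type and by 1.60 ± 0.32 in heterozygotes (edgeR adjusted p = 0.0375 and 0.00157). The wild type call was lost without HSC library 1 or either plate2 library of wild type, or without either heterozygous plate2 library, at 0.77 to 1.23 (edgeR adjusted p = 0.0561 to 0.227). It was also lost with at least 2000 transcripts a well (0.49, edgeR adjusted p = 0.421).

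Hspe1, the Hsp10 lid of the same chamber, went another way. Its level was 1199 and 1252 CPM in wild type HSC, 663 and 457 CPM in heterozygous HSC, 496 and 462 CPM in wild type plate2, and 579 and 718 CPM in heterozygous plate2 libraries. The wild type HSC libraries were high against all others, and the rest overlapped. In wild type, plate2 libraries were lower, at -1.09 ± 0.28 (log2, SE; edgeR adjusted p = 0.0103), while the value was 0.40 ± 0.27 in heterozygotes (edgeR adjusted p = 0.306) and -0.35 ± 0.19 over both (edgeR adjusted p = 0.172).

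The high wild type value of Hspe1 rested in part on 1 well of each library. The deepest wells, with 13698 and 18028 transcripts, held 58 and 65 Hspe1 transcripts, which is 48.9% and 50.2% of those of their libraries. The same wells held 64.7% and 46.7% of Hspd1 and 35% and 37.2% of Hsp90aa1. They carried many more erythroid progenitor marker transcripts (87 in that of library 1) than stem cell marker transcripts (5 and 4), which goes against the HSC label. Without the deepest well of each library the wild type difference of Hspe1 was -0.45 (edgeR adjusted p = 0.281), and with wells thinned to 1000 transcripts it was 0.07 (edgeR adjusted p = 0.882).

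Hspa9, mortalin, which pulls proteins into mitochondria, was at 222 and 164.98 CPM in wild type HSC, 143.3 and 119.3 CPM in heterozygous HSC, 178.4 and 181.3 CPM in wild type plate2, and 174.5 and 226 CPM in heterozygous plate2 libraries. The 2 heterozygous HSC libraries were below every other library, and the other groups overlapped. Its difference was 0.48 ± 0.22 over both genotypes (edgeR adjusted p = 0.0980), 0.16 ± 0.33 in wild type (edgeR adjusted p = 0.776) and 0.80 ± 0.30 in heterozygotes (edgeR adjusted p = 0.0625).

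**Figure D2:**
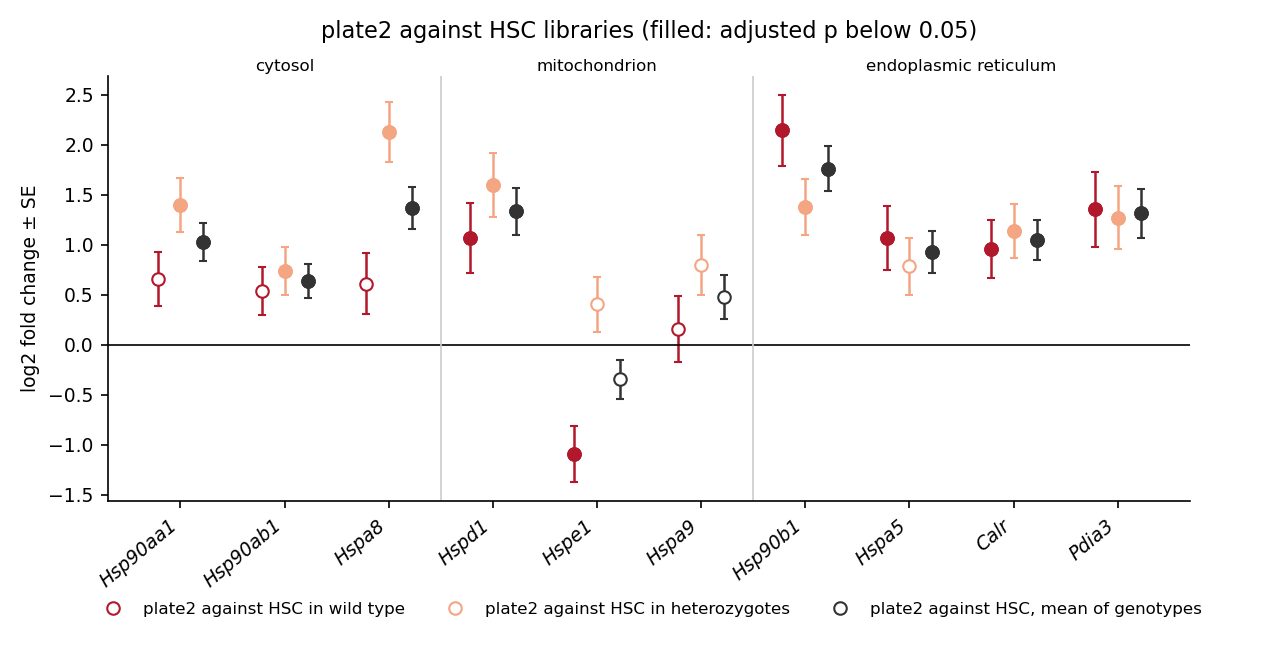
Log2 fold change of plate2 over HSC libraries (points) with its SE (bars) from edgeR for each chaperone, in wild type, in heterozygotes and as the mean of both; filled points passed an adjusted p of 0.05. The ER members lie between 0.78 and 2.14 in each contrast, and Hspe1 is the only member below 0, at -1.09 in wild type.

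In wild type alone, 5 of 10 members were called higher and 1, Hspe1, lower, where 9.64% of all genes tested were called higher and 8.13% lower. Heterozygotes had 7 called higher and 0 lower, against 11.9% and 10.3% of all genes. Over both genotypes 8 members were called higher with each library left out in turn, and 6 with wells thinned to 1000 transcripts, where Pdia3 and Hspa9 were too low to be tested. In wild type the count was 1 and 3 without plate2 library 1 or 2 and 3 and 2 without HSC library 1 or 2, and in heterozygotes it was 4 without plate2 library 1. The call of Hspe1 was lost without wild type HSC library 2 or either wild type plate2 library, at -1.006 to -1.114 (edgeR adjusted p = 0.0655 to 0.0741). Wild type calls were also lost without plate2 library 1 for Calr, Hspa5 and Pdia3, without plate2 library 2 for Hspa5, without HSC library 1 for Calr, and without HSC library 2 for all 3. In heterozygotes that of Hsp90ab1 was lost without any 1 of the 4 libraries, that of Pdia3 without either plate2 library and that of Calr without plate2 library 1. Without the wells on far deeper barcodes, 8 members were called higher over both genotypes, 3 in wild type (Hsp90b1, Calr and Hspa5) and 6 in heterozygotes.

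Hspd1 and Hspe1 share their start region and a protein complex, and their messages stood in different proportions in the sets. There were 7.0 and 4.30 Hspe1 transcripts per Hspd1 transcript in wild type HSC, 2.53 and 3.17 in heterozygous HSC, 1.103 and 1.27 in wild type plate2, and 1.15 and 1.25 in heterozygous plate2 libraries. The 4 plate2 libraries were close to each other and below all HSC libraries. On the log2 scale the mean ratio was 1.98 ± 0.63 in HSC and 0.25 ± 0.10 in plate2 libraries (SD, n = 4 each). The ratio was chosen after its values were seen, so it is given as a description with no test. Without the deepest wells it was 2.51 to 10.2 in HSC and 1.11 to 1.27 in plate2 libraries, and with wells thinned to 1000 transcripts it was 3.18 to 8.75 and 1.45 to 1.88. Without the wells on far deeper barcodes it was 2.55 to 6.38 and 1.06 to 1.24. Hspd1 had only 17 to 64 transcripts in an HSC library. GENCODE names 5 pseudogene copies of Hspd1 and 6 of Hspe1 that the count files do not list, so reads shared with copies are an uncertain share of both levels.

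**Figure D3:**
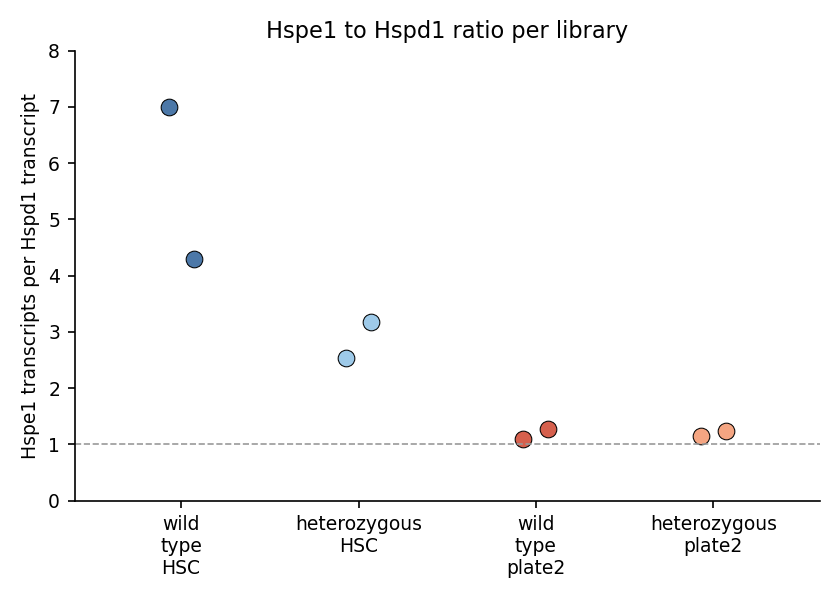
Hspe1 transcripts per Hspd1 transcript in each library, 1 point per library by group on an axis from 0; the dashed line marks equal numbers. The HSC points lie between 2.53 and 7.0 and the plate2 points between 1.103 and 1.27.

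The paired cytosolic genes moved less against each other. Hsp90aa1 transcripts per Hsp90ab1 transcript were 0.833 and 0.862 in wild type HSC, 0.716 and 0.515 in heterozygous HSC, 0.867 and 0.985 in wild type plate2, and 0.884 and 1.08 in heterozygous plate2 libraries. The sets were separate by a small margin, since wild type HSC library 2 and wild type plate2 library 1 were nearly equal. This ratio too is a description with no test.

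Within the plate2 libraries, wells with chaperone messages of the cytosol were also those with messages of the mitochondrion. Across the 45 to 65 wells of a plate2 library, Spearman's rho between the summed shares of the cytosolic and the mitochondrial members was 0.68 to 0.81, as a description of wells that share a library and vary in depth. In HSC libraries it was 0.08 to 0.36 over 46 to 68 shallower wells. The share of erythroid progenitor markers ran with the cytosolic members (rho 0.45 to 0.65) and the mitochondrial members (0.63 to 0.68) of a plate2 library. The summed share of ribosomal protein genes ran with both as well, at 0.51 to 0.67 and 0.45 to 0.68. With the ER members the erythroid marker share had a rho of -0.18 to 0.42 and the ribosomal share 0.28 to 0.54. Depth itself had a rho of 0.23 to 0.51 with the cytosolic, -0.09 to 0.59 with the mitochondrial and 0.26 to 0.52 with the ER share. Without the wells on barcodes at least 10 times deeper in another library, depth had a rho of 0.53 to 0.70, 0.61 to 0.67 and 0.52 to 0.63 with the 3 shares in plate2 libraries, and the cytosolic and mitochondrial shares had 0.80 to 0.90. Depth thus moves with all 3 shares, and its part in their relation was not tested.

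In 3 of 4 plate2 libraries the ER members peaked in wells with neutrophil progenitor markers. Among plate2 wells of at least 5000 transcripts, the well with the highest ER share carried 748 neutrophil progenitor marker transcripts and 1 erythroid one in wild type library 1, 658 and 8 in heterozygous library 1, and 382 and 1 in heterozygous library 2. These wells gave 0.748%, 0.834% and 0.599% of their transcripts to the 4 ER members. In wild type library 2 the top ER well gave 0.267% and was an erythroid one, with 224 erythroid and 0 neutrophil progenitor transcripts. The top well for the mitochondrial members carried 99 to 523 erythroid progenitor transcripts and at most 5 of neutrophil progenitors in each of the 4 libraries.

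Wells were then grouped by marker share, at 0.2% of a well's transcripts for the neutrophil progenitor list (with Mpo, Elane, Prtn3 and Ctsg) or for the erythroid progenitor list (with Klf1, Gata1, Car1 and Tfrc). This is a range of a score and not a cell type, and it was set after the wells had been seen. Wild type library 1 had 9 wells of the first kind and 25 of the second, heterozygous library 1 had 4 and 21, and heterozygous library 2 had 7 and 23. Wild type library 2 had 0 and 17. Some of these wells held 1003 to 1473 transcripts on a barcode at least 10 times deeper in another library, and all 26 such marker wells were of the same kind as the deeper well. Without them wild type library 1 had 4 and 15 wells, heterozygous library 1 had 4 and 17, heterozygous library 2 had 6 and 23, and wild type library 2 had 0 and 11. Between 0.1% and 0.4%, near the limit, lay 2 to 3 wells a library for the neutrophil and 13 to 19 for the erythroid list, and 0 wells passed both limits.

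All 4 ER chaperones were higher in the neutrophil marker wells than in the erythroid marker wells of the same library, in 3 of 3 libraries. Hsp90b1 was at 992, 1904 and 1067 CPM in the neutrophil marker wells of wild type library 1 and heterozygous libraries 1 and 2. In the erythroid marker wells it was at 274, 378 and 459 CPM, which makes ratios of 3.63, 5.03 and 2.32. Calr was 3.77, 4.03 and 2.84 times as high, Hspa5 4.13, 4.44 and 2.54 times, and Pdia3 3.20, 3.57 and 1.84 times. The cytosolic and mitochondrial members gave ratios of 0.464 to 1.29. Hsp90aa1 was at 2575, 1884 and 1951 CPM against 2967, 3288 and 4207 CPM in the erythroid marker wells, which makes 0.868, 0.573 and 0.464, and Hspe1 gave 0.796, 0.623 and 0.623. Ratios differed in direction between libraries for Hsp90ab1 (1.28, 1.006 and 0.921), Hspd1 (1.11, 0.6 and 0.531), Hspa8 (1.29, 0.525 and 0.849) and Hspa9 (0.626, 1.08 and 0.641). With the limit at 0.1% or at 0.5% the ER ratios were 1.58 to 4.89 and all above 1. Without the wells on far deeper barcodes they were 3.62, 5.05 and 2.29 for Hsp90b1, and the lowest of the 12 ER ratios was 1.86, for Pdia3. No test was made, since wells of a library are not replicates and 3 libraries had both kinds of well.

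**Figure D4:**
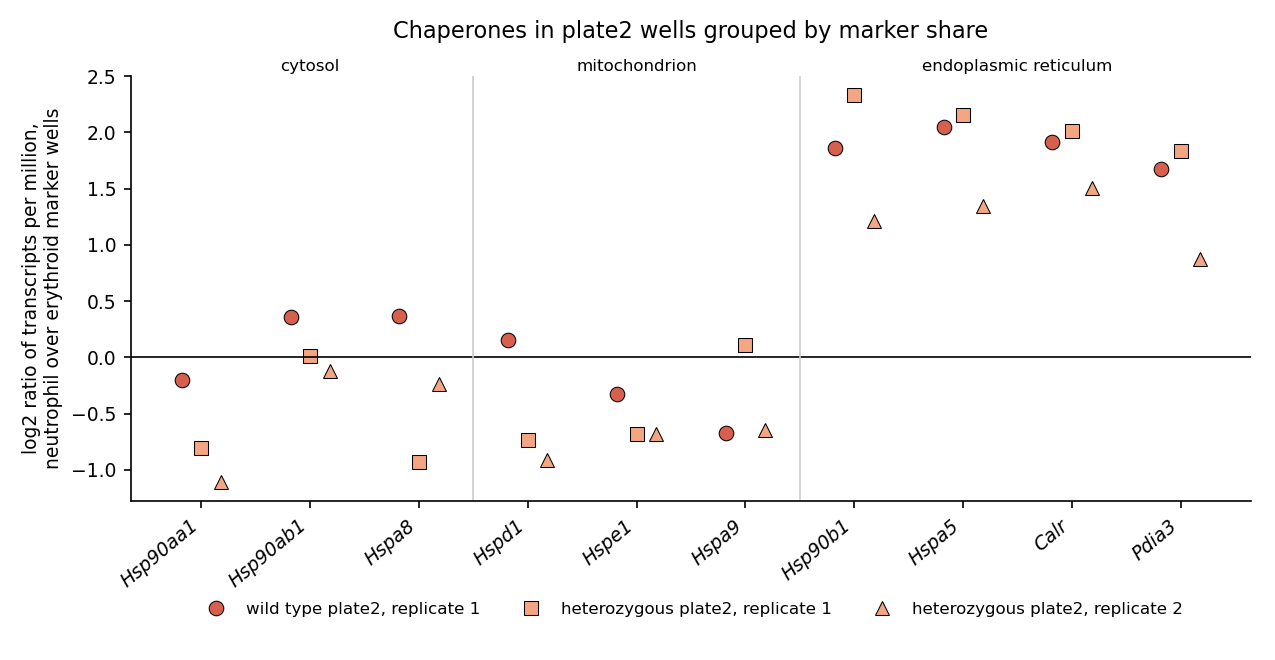
Log2 ratio of CPM in neutrophil progenitor marker wells over erythroid progenitor marker wells for each chaperone, 1 point for each of the 3 plate2 libraries with both kinds of well. The 12 ER points lie above 0, and those of Hsp90aa1 and Hspe1 lie below 0.

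Wells with neither marker list at the limit were low in the cytosolic and mitochondrial members. In them the median share of the cytosolic members was 0.265% and 0.271% in wild type and 0.314% and 0.420% in heterozygous plate2 libraries, against 0.534% to 0.843% in the erythroid marker wells. For the mitochondrial members the medians were 0.0364% to 0.0504% against 0.144% to 0.169%. Their median depths were 6938 to 8906 transcripts, against 6941 to 19460 in the erythroid marker wells. The neutrophil marker wells had median depths of 1383 in wild type library 1, and 28300 and 16250 in heterozygous libraries 1 and 2. Without the wells on far deeper barcodes, wild type library 1 had a median of 27020, and the mitochondrial medians of the erythroid marker wells were 0.0884% to 0.144%.

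Without the neutrophil marker wells the ER rise over HSC libraries was smaller, which follows from how these wells were chosen. They were grouped after the wells had been seen and had the higher ER levels, and HSC libraries held 0 of them. The values are thus a description and no test of where the rise comes from. Neutrophil progenitor markers summed to 151.1 to 295 CPM in HSC libraries and to 164.8 to 3978 CPM in plate2 libraries. Without these wells Hsp90b1 was 1.37 higher, Pdia3 1.01 and Calr 0.64 on the log2 scale, all still past the threshold (edgeR adjusted p = 9.26e-05, 0.00373 and 0.0151), and Hspa5 was at 0.54 (edgeR adjusted p = 0.0768). The cytosolic members and Hspd1 kept values of 0.60 to 1.37.

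Other folding genes were counted from lists in the same way. Beside each list stand the 19.5% of all genes tested that were called higher and the 16.4% called lower. No list was tested as a set. Of the cytosolic co-chaperones and heat shock factors, 9 of 20 tested rose in plate2 libraries and 0 fell, with a median of 0.38. Ptges3, the Hsp90 co-chaperone p23, rose by 1.15 ± 0.23, Ahsa1, which speeds the Hsp90 ATPase, by 1.05 ± 0.26, and the Hsp70 partner Dnaja1 by 0.97 ± 0.22 (edgeR adjusted p = 0.000630, 0.00342 and 0.00216). Hspa1a, an inducible Hsp70, was at 0, 29.1, 0 and 9.90 CPM in HSC libraries and at 30.1 to 69.3 CPM in plate2 libraries; its near-identical copy Hspa1b is not listed, so its level is uncertain.

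The chaperonin TRiC and prefoldin, which fold actin and tubulin, were mixed. Of 13 tested genes 4 rose and 2 fell, beside 19.5% and 16.4% of all genes tested, with a median of 0.25. Cct4 rose by 1.45 ± 0.24, Pfdn1 by 1.72 ± 0.51, Cct8 by 0.78 ± 0.22 and Tcp1 by 0.84 ± 0.30, while the prefoldin subunits Vbp1 and Pfdn2 fell by 1.16 and by 0.91 (edgeR adjusted p = 0.000129, 0.0115, 0.00979, 0.0327, 0.00100 and 0.00672). Of 13 mitochondrial import and quality control genes, 5 rose and 0 fell, with a median of 0.86. They included the prohibitin Phb2 (1.16 ± 0.28), the Hspa9 exchange factor Grpel1 (1.68 ± 0.57), the import motor subunit Dnajc19 (0.97 ± 0.33) and the protease Clpp (1.58 ± 0.57), with edgeR adjusted p = 0.00301, 0.0264, 0.0266 and 0.0359.

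Among ER folding partners 9 of 21 rose and 1 fell, with a median of 0.89. The disulfide isomerases P4hb and Pdia6 rose by 2.30 ± 0.31 and 1.21 ± 0.27, and the secreted folding factor Manf by 1.44 ± 0.31 (edgeR adjusted p = 9.38e-06, 0.00162 and 0.00120). The prolyl isomerase Ppib had 0 transcripts in the 4 HSC libraries and 88 in the plate2 libraries, at least 7.70-fold higher when the HSC libraries together are set to 3 counts. Sil1, the exchange factor of BiP, fell by 1.25, from 20.5 to 90.7 CPM in HSC to 14.7 to 22.2 CPM in plate2 libraries (edgeR adjusted p = 0.0242).

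Genes of the unfolded protein response, of which only some drive ER chaperone genes, were not called higher. Of 8 listed 5 were tested, and of these 0 rose and 2 fell, with a median of -0.75. Atf4 was at 144.2 to 302 CPM in HSC and 80.3 to 122.4 CPM in plate2 libraries, and fell by 0.90. Xbp1 was at 67.9 to 155.6 CPM against 51.7 to 66.3 CPM, and fell by 0.75 (edgeR adjusted p = 0.00373 and 0.0400). The message level does not show Xbp1 splicing or Atf4 translation, by which both are known to be controlled. Immediate early and stress genes, which respond quickly to handling, were lower in plate2 libraries in 7 of 9 cases, and Hspa1a, which is also on that list, was the 1 that rose. Ier3, Jund, Egr1 and Jun fell by 2.72, by 1.98, by 1.83 and by 1.16 (edgeR adjusted p = 1.15e-05, 3.77e-05, 0.00146 and 0.00527). Their part in the chaperone differences was not tested.

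In the edgeR fit of 4 groups to all kept wells, no chaperone passed for the Mof genotype in either set. In HSC libraries 0 of 10 members passed, where 0.0149% of all genes did, and 3 members had an unadjusted edgeR p under 0.05, as did 10.8% of all genes. Values were positive for all 4 ER members (median 0.32) and negative for the 3 cytosolic (-0.48) and 3 mitochondrial members (-0.62), beside a median of 0.03 over all genes. Hsp90b1 was at 90.7 and 106.8 CPM in wild type and 246 and 278 CPM in heterozygous HSC libraries, without overlap, a log2 difference of 1.33 ± 0.37 (edgeR adjusted p = 0.213). Hspe1 at -1.20 ± 0.28 and Hspa8 at -0.93 ± 0.33 had separate genotypes too (edgeR adjusted p = 0.138 and 0.321). So did Hspa9, Hspa5 and Calr. The share of all genes with genotypes apart in this way was not counted, so the separation is a description. The result for Hspe1 depended on the wells used. By edgeR it was called with at least 2000 transcripts a well (-1.58, edgeR adjusted p = 0.0300) and with every barcode (-1.17, edgeR adjusted p = 0.0498). It was at -0.43 without the deepest wells (edgeR adjusted p = 0.653), a setting that keeps other deep wells with erythroid progenitor markers in heterozygous library 1. A block with crossed HSC replicate numbers also called it (-1.22, edgeR adjusted p = 0.0158), and DESeq2 called both Hspe1 (adjusted p = 0.00203) and Hsp90b1 (adjusted p = 0.0432).

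The other members of HSC libraries had smaller genotype differences. They were -0.62 ± 0.36 for Hspa9, -0.48 ± 0.27 for Hsp90aa1, 0.36 ± 0.33 for Hspa5, 0.28 ± 0.30 for Calr, -0.25 ± 0.37 for Hspd1, 0.11 ± 0.43 for Pdia3 and -0.04 ± 0.24 for Hsp90ab1 (edgeR adjusted p = 0.538 to 0.971). Approximate 95% intervals, from the SE and a normal limit, are somewhat narrow for so few libraries. Those of these 7 included 0. The interval of Pdia3 reached from -0.73 to 0.95, so differences within that range were not excluded here.

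In plate2 libraries 0 of 10 members passed, against 0.553% of all genes, and 2 had an unadjusted edgeR p under 0.05, where 5.05% of all genes did; DESeq2 called 0. All 10 values were positive, with a median of 0.26 beside -0.005 over all genes. Hspa8 was at 0.58 ± 0.27, Hsp90b1 at 0.56 ± 0.26, Calr at 0.46 ± 0.26, Hspe1 at 0.30 ± 0.27, Hspd1 at 0.27 ± 0.29 and Hsp90aa1 at 0.25 ± 0.26. Hsp90ab1 was at 0.16 ± 0.23, Hspa5 at 0.08 ± 0.27, Pdia3 at 0.03 ± 0.26 and Hspa9 at 0.02 ± 0.27 (edgeR adjusted p = 0.926 to 0.999 over the 10). Wild type plate2 library 2 was the lowest plate2 library for Hsp90b1, Calr, Pdia3 and Hspa5. It was also the lowest for Hsp90ab1, Hspa8, Hspd1 and Hspe1. This library had no neutrophil progenitor marker well, and the part of that in its levels was not tested. Mature neutrophil markers also differed by genotype. They summed to 2715.2 and 2154.5 CPM in wild type and 380.67 and 113.51 CPM in heterozygous plate2 libraries. Across plate2 wells their share had a rho of -0.62 to -0.09 with the cytosolic share. It was -0.49 to 0.0040 with the mitochondrial and -0.28 to 0.195 with the ER share. The part of these markers in the genotype values was not tested.

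**Figure D5:**
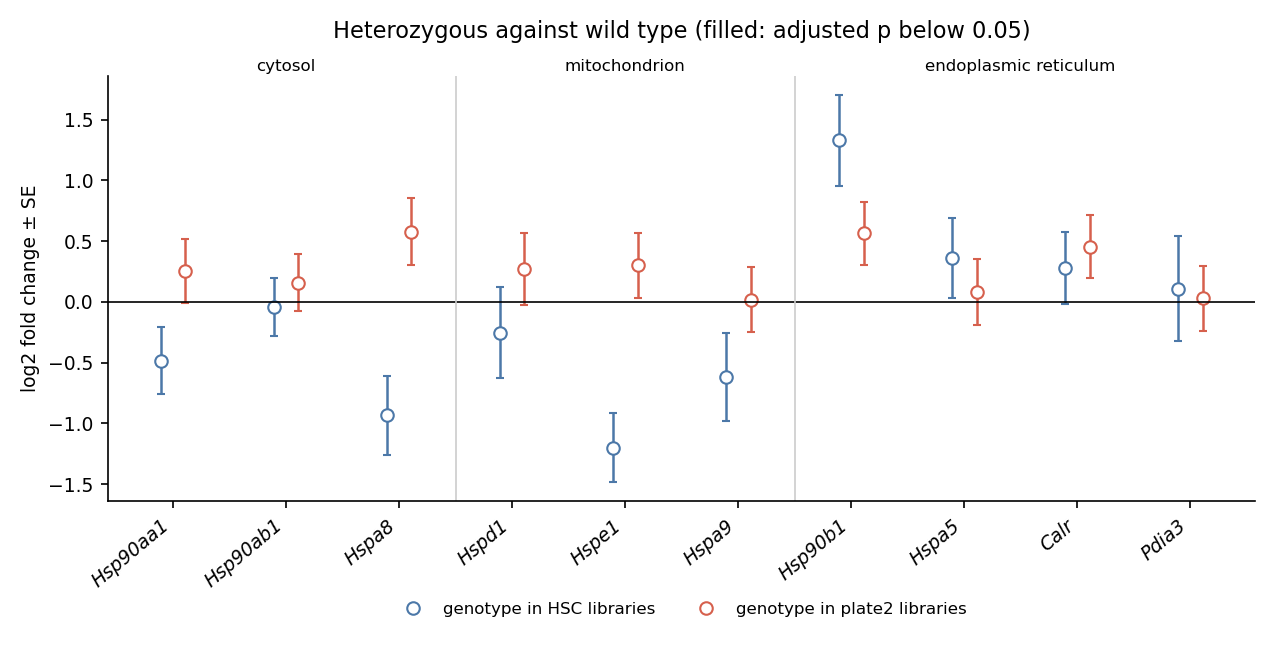
Log2 difference of heterozygous from wild type libraries (points) with its SE (bars) from edgeR, for HSC and for plate2 libraries. No point is filled, that is, none passed an adjusted p of 0.05; Hspe1 lies at -1.20 in HSC and 0.30 in plate2 libraries, and Hsp90b1 at 1.33 and 0.56.

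Hspa8 and Hspe1 had opposite genotype differences in the sets, lower in both heterozygous HSC libraries and higher in both heterozygous plate2 libraries. How many of all genes have libraries apart in this way was not counted. The difference of the effects was 1.51 ± 0.43 for Hspa8 and 1.499 ± 0.39 for Hspe1, and neither passed (edgeR adjusted p = 0.306 each). Of the 10 members 0 passed this test where 0.0% of all genes passed, and 2 had an unadjusted edgeR p under 0.05, beside 9.07% of all genes. DESeq2 called 0 members. The remaining values were 0.74 for Hsp90aa1, 0.64 for Hspa9, 0.53 for Hspd1, 0.20 for Hsp90ab1, 0.18 for Calr, -0.08 for Pdia3, -0.28 for Hspa5 and -0.77 for Hsp90b1.

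Over both sets together, 0 of 10 members passed for genotype, against 0.135% of all genes. Hsp90b1 had the largest value, 0.83 ± 0.24, and was higher in heterozygotes in both sets (edgeR adjusted p = 0.311). It was the 1 member with an unadjusted edgeR p under 0.05, which 5.96% of all genes had, and DESeq2 called it (adjusted p = 0.0404). The remaining values were 0.38 for Calr, 0.20 for Hspa5, 0.06 for Hspd1, 0.06 for Hsp90ab1, 0.05 for Pdia3, -0.07 for Hspa8, -0.10 for Hsp90aa1, -0.22 for Hspa9 and -0.42 for Hspe1 (edgeR adjusted p = 0.919 to 0.997).

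The other folding lists had 0 genes called for genotype in either set or over both. In HSC libraries P4hb (1.55 ± 0.60) and Sil1 (-1.77 ± 0.61) led the ER partners, Cct4 (1.14 ± 0.43) and Cct6a (-0.68 ± 0.31) the chaperonin genes, and Fkbp4 (-0.85 ± 0.36) and Dnaja1 (-0.80 ± 0.36) the cytosolic partners (edgeR adjusted p = 0.321 to 0.436). In plate2 libraries Sdf2l1 (1.29 ± 0.47) and Hyou1 (0.98 ± 0.47) led the ER partners (edgeR adjusted p = 0.639 and 0.973).

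Genes whose level ran most like each compartment over the 8 libraries were sought among 3390 genes, by Pearson's r with the mean log2 level of its members and with no test. For the cytosol they were Ybx1 (0.98), Ncl (0.97) and Hnrnpu (0.97). For the mitochondrion they were Cirh1a (0.95), Psmb3 (0.95) and Pbdc1 (0.95). For the ER they were Rps15a, Rpl6l and Gm28037 (0.99 each). The 8 libraries fall into 2 sets of different depth, which every such r shares.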

How the data were processed

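Sorted bone marrow cells were made into CEL-Seq2 libraries, per the labels' protocols, and BWA 0.6.2-r126 and mm10 are named per the submitters' processing notes. For annotation and counting, the tool was not given in the sources used here. What the authors deposited are expected counts, that is, transcript numbers estimated for each gene in each well from molecular identifiers (4096 possible), unscaled for depth. Rows that name no gene made up 0%, and spike-ins stayed out of library sizes. Values were summed over wells of at least 1000 transcripts, rounded, and fitted with edgeR 4.0.16 in R 4.3.3 (TMM, filterByExpr, quasi-likelihood, 4 groups; set plus genotype for the effect over both sets). Adjusted p is Benjamini-Hochberg over all 6690 genes, threshold 0.05, two-sided, and SE is that of the fitted log2 fold change. DESeq2 1.42.0 was an alternative. In simulated data for plate2 against HSC over both genotypes (6150 genes), 66.0% of 2-fold and 100% of 4-fold changes were called. The changes were put only into the better counted genes, and the genotype comparisons were not simulated. Libraries of a group differed by 2.20 to 4.47 chi-square per degree of freedom, where counting error gives 1. HSC replicate numbers did not pair (r = -0.234 over 1322 genes). Of the 436 kept wells, 417 lay among the 96 barcodes that hold most wells of their library. Wells were sorted singly, and no doublet caller was run. Kept wells of 2 libraries shared 0 to 43 barcodes.

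Members and lists were chosen with earlier results of these data known. All members are named in every comparison; of other lists, up to 4 genes a direction of smallest p that passed, or 2 where none did. Likeness used log2(CPM + 1) and genes of at least 50 CPM on average. GENCODE vM21 (GRCm38) gave coordinates for 95.6% of names. Alternatives were other scalings, filters, well sets, thinning, library sets and the replicate block. Start regions of Hspa9, Hsp90aa1, Hsp90ab1 and Hspa8 were not used here.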

Additional observations from a re-analysis of the deposited data

How the results depend on the processing

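The higher levels of Hsp90aa1, Hspa8, Hspd1, Hsp90b1 and Pdia3 in plate2 over both genotypes kept their call in every alternative in which they were tested. With library size alone as scaling, the median log2 fold change of all genes between the sets moved from 0.08 to -0.14 over both genotypes, and the higher share of calls fell from 54.2% to 39.3%; it went from 54.2% to 36.5% in wild type and from 53.6% to 38.2% in heterozygotes. Calls over all genes ranged from 456 to 3074 around 2401 for the sets over both genotypes, from 297 to 1830 around 1189 in wild type, from 226 to 1986 around 1481 in heterozygotes, from 0 to 40 around 1 for genotype in HSC, from 4 to 75 around 37 in plate2, from 0 to 21 around 0 for the difference of effects and from 5 to 64 around 9 over both sets. The lowest counts between the sets came from thinned wells and the highest from use of every barcode. The causes were not tested.

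Counts of members moved as follows. For genotype in HSC, DESeq2 called 1 higher and 1 lower, and 1 was lower with at least 2000 transcripts per well or with every barcode; over both sets DESeq2 called 1 higher. In wild type, members higher in plate2 were 2 with library size alone, 3 by DESeq2, 1 with at least 2000 transcripts, 8 without wells of neutrophil or late erythroid markers 2 without neutrophil progenitor marker wells and 3 without wells on barcodes far deeper in another library, and 0 were lower with thinned wells, without the marked wells or without the deepest wells. In heterozygotes thinned wells gave 3 higher. Over both genotypes 1 member, Hspe1, was lower with library size alone, at least 2000 transcripts or every barcode. Leaving out 1 library gave 1 to 6 higher and 0 to 1 lower in wild type, and 4 to 8 higher in heterozygotes.

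Some signs turned, among them that of Hspe1 in wild type, which had been called. For genotype in HSC, Hsp90ab1 was 0.047 with library size alone, 0.040 with no low-count filter, 0.079 with at least 2000 transcripts, 0.037 with every barcode, 0.025 with only the 4 libraries compared, 0.027 without marked wells, 0.024 without the deepest wells and 0.0020 without wells on far deeper barcodes. Hspa5 was -0.047 and Pdia3 -0.060 with at least 2000 transcripts, Pdia3 -0.037 without wells on far deeper barcodes, Hspd1 0.65 thinned, 0.42 without marked and 0.57 without the deepest wells, and Hsp90aa1 0.063 without marked wells. In plate2, Hspa9 was -0.0044 with at least 2000 transcripts -0.062 without marked wells and -0.0028 without wells on far deeper barcodes, Hspd1 -0.22 thinned, and Hspa5 -0.030 and Pdia3 -0.11 without neutrophil progenitor marker wells. The difference of effects was 0.12 for Hspa5 and 0.11 for Pdia3 with at least 2000 transcripts, -0.87 for Hspd1 and -0.085 for Calr thinned, -0.21 and -0.31 for Hspd1 without marked or deepest wells, -0.020 for Calr without neutrophil progenitor marker wells, and -0.0033 for Calr and 0.091 for Pdia3 without wells on far deeper barcodes. Between the sets, Hspa9 was -0.085 in wild type with library size alone, and Hspe1 0.075 in wild type thinned, and 0.36 thinned and 0.22 without marked wells over both genotypes. For genotype over both sets, library size alone gave 0.0079 for Hsp90aa1 and 0.047 for Hspa8, at least 2000 transcripts -0.13 for Hspd1, every barcode 0.0091 for Hspa8, thinning 0.11 for Hsp90aa1 and -0.029 for Hsp90ab1, no marked wells 0.21 for Hsp90aa1 and 0.37 for Hspa8, no deepest wells 0.12 and 0.13 for the same genes, and no neutrophil progenitor marker wells -0.043 for Pdia3.

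With 1 library left out, genotype values ranged in HSC from -0.13 to 0.17 for Hsp90ab1, -0.69 to 0.28 for Hspd1 and -0.11 to 0.56 for Pdia3, and in plate2 from -0.18 to 0.20 for Hspa9, -0.14 to 0.28 for Hspa5 and -0.092 to 0.19 for Pdia3. The difference of effects ranged from -0.0016 to 0.28 for Calr and -0.51 to 0.16 for Pdia3, and the value over both sets from -0.22 to 0.14 for Hsp90aa1, -0.35 to 0.19 for Hspa8, -0.045 to 0.29 for Hspd1 and -0.0069 to 0.17 for Pdia3.

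A replicate block on the HSC numbers, which share only a number (r = -0.234), gave Hspe1 at -1.22 for genotype in HSC (edgeR adjusted p = 0.158), with 0 members called. With the numbers crossed, chosen after seeing the data like the settings that leave out wells by markers, depth or barcode, 1 member was lower for genotype in HSC and 1 higher for the difference of effects.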
